A study of Arabidopsis thaliana with 8 samples.

Results

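The addition of a SAP18 insertion to the sr45 mutant was examined by comparing 2 sap18sr45 libraries with 2 sr45 libraries, which are 4 of the 8 RNA-seq libraries of the study. By the study's methods both lines carry the T-DNA insertion allele sr45-1, and sap18sr45 carries a T-DNA insertion in SAP18 in addition. The other 4 libraries are 2 of asap, a triple mutant with insertions in SAP18, SR45 and ACINUS, and 2 of the wild-type accession Col0, the background of all lines. Libraries were assigned by the genotype in their labels. All came from whole Arabidopsis thaliana seedlings that were kept at 4 °C for 48 h on MS medium and then grown for 11 days at 22 °C with 16 h light and 8 h dark. Each mutant is represented by 1 line, and the labels do not say whether its 2 libraries came from separate cultures. The p-values thus measure only the spread between libraries of a genotype, estimated from all 8 libraries. Levels are cRPKM, the authors' RPKM (reads per kilobase of gene, scaled to the reads of the library) corrected for the mappable positions of a gene, and differences are log2 changes of sap18sr45 over sr45 fitted to the read counts, with their standard errors (SE). A gene was taken to have risen or fallen at a Benjamini-Hochberg adjusted p under 0.05 in edgeR's quasi-likelihood test.

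SAP18, SR45 and ACINUS form the ASAP complex, which joins the exon junction complex that is deposited on mRNAs during splicing. SR45 is an SR-like splicing regulator whose loss in Arabidopsis alters splicing, leaf and flower shape and responses to abscisic acid and sugar. SAP18 is a small ubiquitin-fold protein that was first described in animals as a partner of the Sin3 histone deacetylase complex. In bulk RNA of whole seedlings, fewer cells of a type and less RNA per cell cannot be told apart.

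The count table was held in part and covers chromosome 1 and the first part of chromosome 2, with 9536 loci that carry values. Among them are 27.6% of the protein-coding loci of the reference annotation, beside loci of other types. SAP18 and ACINUS lie outside the part held, so the second insertion of sap18sr45 could not be checked at its own transcript. Over these loci the sap18sr45 libraries held 3889636 and 2504140 counts and the sr45 libraries 1295244 and 2309239, with 2119471 to 4052420 in the other 4. The first sr45 library was the shallowest, and 3 counts there equal 2.316 CPM, counts scaled to library size. The coefficient of variation between replicates was 4.51% in sap18sr45 and 10.5% in sr45, with 3.53% in Col0 and 14.2% in asap. Seed markers were at or near 0, with a summed level of 0.42 and 0.45 cRPKM in sap18sr45 and of 0 and 0.14 cRPKM in sr45, and the 4 flower markers summed to 3.09 and 3.61 cRPKM in sap18sr45 and to 2.04 and 3.34 cRPKM in sr45. Of these markers CRC and AP1 had 0 counts in the 4 compared libraries, and SPL8 and SEP3 were tested and not called, with log2 changes of 0.24 and 0.12.

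The step was small in most genes. Of 5261 genes tested, 132 rose and 163 fell in sap18sr45, so that 5.61% of all tested genes were called, 2.51% as higher and 3.10% as lower. The median log2 change was 0.51 among the genes that rose and -0.50 among those that fell, against 0.0024 over all genes tested. At least a 2-fold change was found in 22 of the genes that rose and in 21 of those that fell. In all 295 called genes the values of the 2 lines did not overlap, which was also the case in 46.6% of all tested genes. The share called was 5.61% on chromosome 1 and 5.61% on chromosome 2. The counts depended on single libraries. Without the first or the second sap18sr45 library 112 or 119 genes were called, without the first or the second asap library 472 or 466. Rises alone numbered 84 without either Col0 library and 76 without the first sr45 library. The fit was repeated in 19 alternatives with a test. Ranges of adjusted p given below for 1 of the 4 compared libraries left out do not cover the other alternatives. A gene said to lose its call there may have lost it in other alternatives too. The study's own rule, which is no test and asks for at least a 2-fold change in every pair of libraries, kept 10 of the 295 calls. Of the 295 calls 78 (26.4%) were also made without each of the 4 compared libraries in turn. The split between rises and falls depended on the scale as well, since 44.7% of the calls were rises in the count model and 58.0% in limma on log2(cRPKM + 0.5), with 94 rises and 68 falls.

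**Figure D1:**
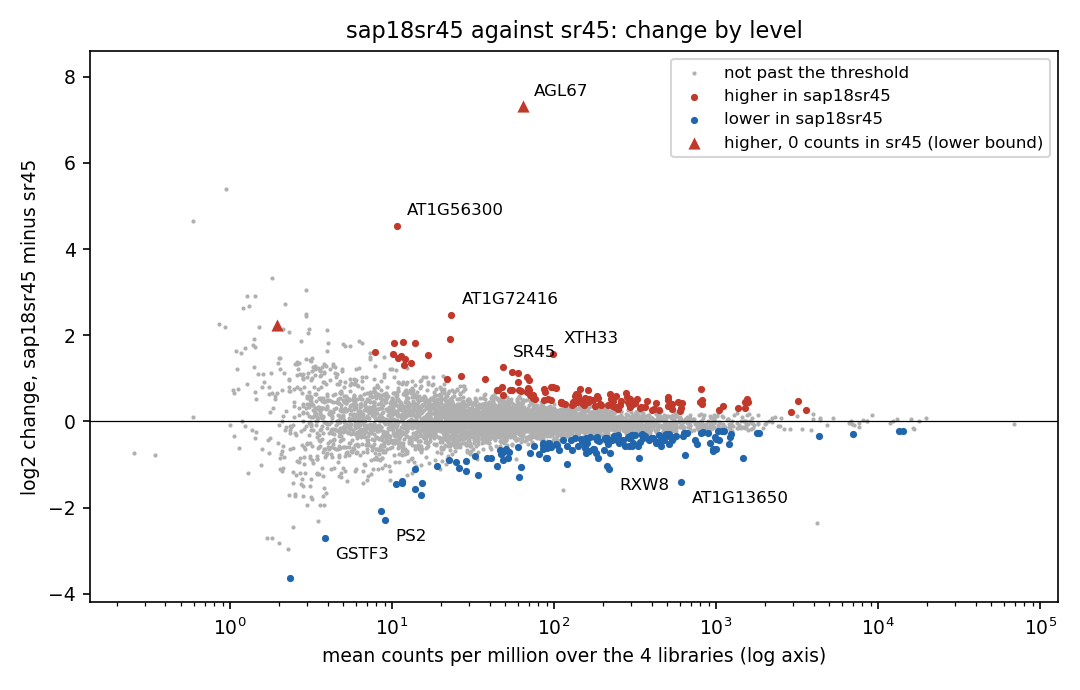
Log2 change of sap18sr45 over sr45 (vertical axis) against the mean CPM of the 4 libraries (horizontal log axis) for 5261 genes, with genes that rose in red, genes that fell in blue and all others in grey. Triangles are lower bounds of 2 genes with 0 counts in both sr45 libraries, AGL67 at 159-fold or more, and most called genes lie within a 2-fold change.

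SR45 itself, in which both lines carry the insertion by the study's methods, was more abundant in sap18sr45 than in sr45. Its transcript (AT1G16610, chromosome 1) was at 13.6 and 14.4 cRPKM in sap18sr45 and at 6.62 and 4.99 cRPKM in sr45, and it stood at 6.23 and 3.85 cRPKM in asap and 24.2 and 21.0 cRPKM in Col0. The sap18sr45 libraries thus lay between those of sr45 and those of Col0, without overlap. The rise was 1.26 ± 0.21 on the log2 scale (SE, adjusted p = 0.000234), and the call was kept in each of the 19 alternatives with a test, with an adjusted p of 0.0322 at most, without the second sr45 library. Set against Col0 in the same model, SR45 had a log2 change of -0.76 ± 0.17 in sap18sr45 (adjusted p = 0.00104), of -2.02 ± 0.20 in sr45 (adjusted p = 8.14e-09) and of -2.36 ± 0.20 in asap (adjusted p = 6.77e-11), and these comparisons share the Col0 libraries. These counts are sums over the whole gene, so they do not show which part of the SR45 transcript the reads came from.

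The loci beside SR45 were not called. The 5 loci with values on each side were read, in the order of the reference annotation. Of these, 8 were tested and none was called by edgeR or DESeq2 or had an unadjusted p under 0.05 (0 of 8). Their adjusted p-values ran from 0.348 upwards. REV7, a HORMA-domain protein of DNA repair, was at 2.76 and 3.38 cRPKM in sap18sr45 and at 2.49 and 1.69 cRPKM in sr45, a log2 change of 0.55 ± 0.45 (adjusted p = 0.629). The 2 pseudogenes AT1G16600 and AT1G16660 had 0 counts in all 8 libraries.

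AGL67, a gene for a MADS-box transcription factor, was read only in sap18sr45. AGL67 (AT1G77950, chromosome 1) had 550 and 295 counts in the sap18sr45 libraries and 0 and 0 counts in the sr45 libraries, and also 0 counts in each asap and Col0 library. At 43.8 and 36.5 cRPKM its level in sap18sr45 was close to that of XTH33 in the same libraries. With a floor of 3 counts over both sr45 libraries, AGL67 was at least 159-fold higher in sap18sr45 (adjusted p = 1.61e-12). The floor covers counting error only, and the gene was not testable under the stricter filter, which asks for 10 counts in 4 libraries. The call held in the 18 other alternatives with a test. The asap line, which had 0 counts of AGL67, carries insertions in SAP18, SR45 and ACINUS. The source of the AGL67 reads in sap18sr45 was not tested.

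The loci around AGL67 were not called. RPL30B, the nearest locus with values on one side, which encodes a ribosomal protein, was at 365 and 362 cRPKM in sap18sr45 and at 319 and 343 cRPKM in sr45 (log2 change 0.09 ± 0.06, adjusted p = 0.565). AT1G77960, the nearest on the other side, was at 2.44 and 2.16 cRPKM in sap18sr45 and at 3 and 3.56 cRPKM in sr45 (log2 change -0.56 ± 0.39, adjusted p = 0.541). AGL66, a MADS-box gene that acts in pollen, follows AT1G77960 among the loci with values and had 0 counts in all 8 libraries. Of the 10 loci 6 were tested, and none was called by edgeR or DESeq2, while 2 had an unadjusted p under 0.05.

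**Figure D2:**
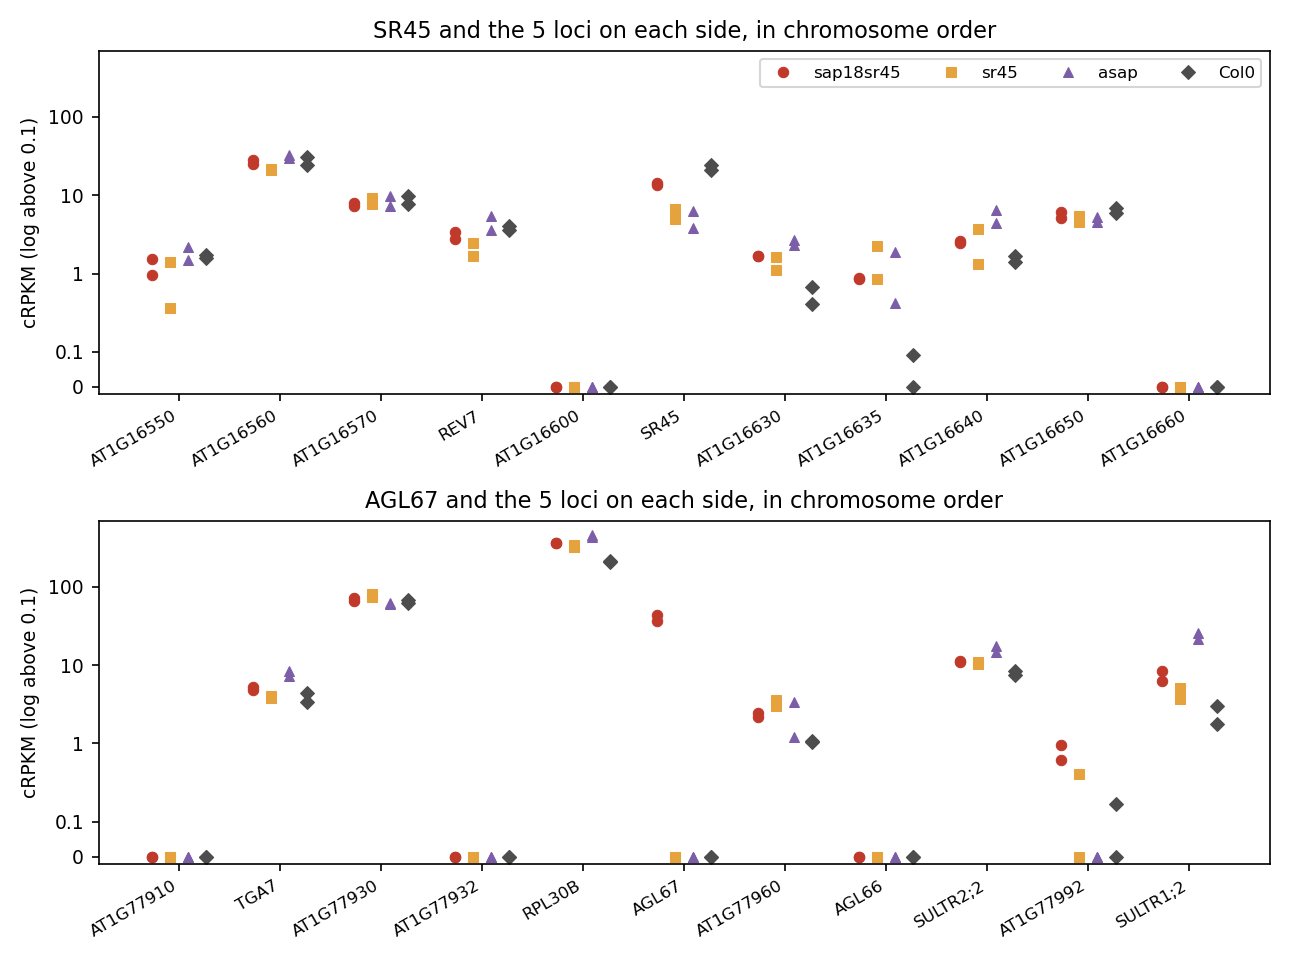
Level in cRPKM (vertical axis, logarithmic above 0.1 and linear below) of SR45 (upper panel) and AGL67 (lower panel) and of the 5 loci with values on each side in chromosome order, with 1 point per library in red for sap18sr45, orange for sr45, purple for asap and dark grey for Col0. Only the middle locus of each panel separates sap18sr45 from sr45 past the threshold.

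Among the other large rises, 4 genes kept their call in each of the 19 alternatives with a test that gave them a value. AT1G72416, annotated as a DnaJ-domain chaperone, was at 11.5 and 12.5 cRPKM in sap18sr45 and at 1.61 and 2.34 cRPKM in sr45, a log2 change of 2.48 (adjusted p = 4.44e-06). Its sap18sr45 level lay above the 2.52 and 4.16 cRPKM of asap and close to the 13.8 and 14.9 cRPKM of Col0. A further DnaJ-domain gene, AT1G56300, had 76 and 55 counts in sap18sr45 and 0 and 3 counts in sr45, a CPM ratio of 24.6 with an exact 95% counting interval of 8.24 to 121. Its levels were 6.73 and 7.57 cRPKM in sap18sr45 and 0 and 0.45 cRPKM in sr45, with 1.45 and 0.13 cRPKM in asap and 0.50 and 0.87 cRPKM in Col0, so sap18sr45 stood above all other libraries (adjusted p = 0.000298). DESeq2 gave AT1G56300 no adjusted p and the stricter filter dropped it.

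XTH33 and AT1G13340 completed this group. XTH33, a xyloglucan endotransglucosylase that remodels the cell wall, was at 45.7 and 42.6 cRPKM in sap18sr45 and at 16.6 and 12.9 cRPKM in sr45, a 2.97-fold rise (log2 change 1.57 ± 0.17, adjusted p = 3.12e-07). In asap it was at 6.79 and 5.45 cRPKM and in Col0 at 14.8 and 13.1 cRPKM, so its highest levels were those of sap18sr45. AT1G13340, annotated as a regulator of Vps4 activity in the multivesicular body pathway, was at 8.71 and 6.68 cRPKM in sap18sr45 and at 2.11 and 1.93 cRPKM in sr45, a log2 change of 1.91 ± 0.32 (adjusted p = 0.000189). The asap libraries of AT1G13340 held 3.26 and 4.52 cRPKM and those of Col0 2.78 and 3.53 cRPKM.

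The remaining large rises lost their call when some libraries were left out. TGA9, a bZIP transcription factor of anther development, was at 3.45 and 3.94 cRPKM in sap18sr45 and at 1.17 and 0.89 cRPKM in sr45 (log2 change 1.83, adjusted p = 0.00137). TGA9 lost the call without the second sr45 library, and DESeq2 gave it no adjusted p. AT2G05510, a glycine-rich protein, was at 6.34 and 11.4 cRPKM in sap18sr45 and at 3.34 and 1.68 cRPKM in sr45 (log2 change 1.85, adjusted p = 0.00636), and its call was lost without the second sap18sr45 or the second sr45 library (adjusted p = 0.162 and 0.209, with at most 0.209 over the alternatives). AT1G19310, a RING/U-box protein, was at 6.56 and 8.98 cRPKM in sap18sr45 and at 1.63 and 3.16 cRPKM in sr45 (log2 change 1.53, adjusted p = 0.00465), and was not called without the second sap18sr45 or the first sr45 library (adjusted p = 0.101 and 0.0809, with at most 0.101 over the alternatives). For these 3 genes the lines did not overlap, which the rule for naming them required. Col0 lay nearer to sap18sr45 than to sr45 for AT2G05510, at 10.1 and 7.88 cRPKM, and for AT1G19310, at 8.66 and 10.8 cRPKM.

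AT1G16500, GSTU22 and AT1G43910 were called with all libraries and lost the call without any 1 of the 4 compared libraries. AT1G16500 was at 4.97 and 5.95 cRPKM in sap18sr45 and at 1.46 and 2.06 cRPKM in sr45 (log2 change 1.52, adjusted p = 0.0196, and 0.0779 to 0.162 with 1 of the 4 left out). GSTU22, a tau-class glutathione transferase, was at 5.51 and 6.01 cRPKM in sap18sr45 and at 1.73 and 1.96 cRPKM in sr45 (log2 change 1.57, adjusted p = 0.0196, and 0.101 to 0.136 with 1 of the 4 left out). AT1G43910, a P-loop hydrolase, was at 2.57 and 2.07 cRPKM in sap18sr45 and at 0.59 and 0.83 cRPKM in sr45 (log2 change 1.61, adjusted p = 0.0327, and 0.0888 to 0.298 with 1 of the 4 left out). GSTU22 and AT1G43910 were highest in asap, at 10.2 and 10.4 cRPKM and at 6.01 and 5.47 cRPKM.

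The gene with the smallest adjusted p of all was a fall. AT1G13650, which encodes an uncharacterized protein and was chosen after its values were seen, was at 91.1 and 87.1 cRPKM in sap18sr45 and at 242 and 221 cRPKM in sr45, a 2.67-fold fall (log2 change -1.41 ± 0.07, adjusted p = 9.63e-14). It stood at 231 and 207 cRPKM in asap and 59.5 and 61.7 cRPKM in Col0, so sap18sr45 lay between the other 2 mutants and Col0. Its call was also made without each of the 4 compared libraries.

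For AT1G60590 and RXW8, too, sap18sr45 lay between the other 2 mutants and Col0. AT1G60590, a pectin lyase-like protein, was at 5.56 and 5.82 cRPKM in sap18sr45 and at 13.2 and 13.6 cRPKM in sr45 (log2 change -1.28, adjusted p = 4.65e-05), with 15.6 and 21.5 cRPKM in asap and 2.25 and 1.87 cRPKM in Col0. RXW8 was at 14 and 15.1 cRPKM in sap18sr45 and at 30.3 and 30.5 cRPKM in sr45 (log2 change -1.11, adjusted p = 4.42e-08), with 28.8 and 25.2 cRPKM in asap and 8.40 and 6.55 cRPKM in Col0. Both calls held in all 19 alternatives with a test.

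The steepest fitted falls were in weakly expressed genes. PS2, a pyrophosphatase named for its induction by phosphate starvation, was at 0.83 and 0.86 cRPKM in sap18sr45 and at 3.93 and 4.09 cRPKM in sr45 (log2 change -2.28, adjusted p = 0.00696). PEPC1, a phosphoethanolamine and phosphocholine phosphatase, was at 1.71 and 2.54 cRPKM in sap18sr45 and at 7.10 and 6.15 cRPKM in sr45 (log2 change -1.70, adjusted p = 0.00563). PHO1-H10, of the family of the phosphate exporter PHO1, was at 0.70 and 0.94 cRPKM in sap18sr45 and at 1.62 and 2.48 cRPKM in sr45 (log2 change -1.42, adjusted p = 0.0379). With 1 of the 4 compared libraries left out, the call of PS2 was kept only without the first sr45 library (adjusted p = 0.0339 to 0.133), that of PEPC1 was lost without the first sap18sr45 and the first sr45 library (0.0333 to 0.196), and that of PHO1-H10 was kept only without the first sr45 library (0.0445 to 0.406). In Col0 these genes were at 1.05 and 0.49, 2.68 and 1.78, and 0.76 and 0.68 cRPKM, nearer to sap18sr45 than to sr45 in each case. With counts thinned to the smallest library, PS2, PEPC1 and PHO1-H10 were not called (adjusted p = 0.194, 0.242 and 0.337). PHO1-H8, of the same family as PHO1-H10, went the other way. It was at 26.4 and 23.4 cRPKM in sap18sr45 and at 18.3 and 16.5 cRPKM in sr45 (log2 change 0.49, adjusted p = 0.0158). It was not among the 78 calls also made without each of the 4 compared libraries.

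GSTF3, PCR1 and AT1G23110 were called with all libraries and lost the call without any 1 of the 4 compared libraries. GSTF3, a phi-class glutathione transferase, was at 0.30 and 0.93 cRPKM in sap18sr45 and at 4.92 and 2.78 cRPKM in sr45 (log2 change -2.70, adjusted p = 0.042, and 0.0755 to 0.523 with 1 left out). PCR1, a membrane protein of cadmium resistance, was at 1.47 and 1.71 cRPKM in sap18sr45 and at 6.95 and 6.20 cRPKM in sr45 (log2 change -2.08, adjusted p = 0.0272, and 0.124 to 0.34 with 1 left out). AT1G23110 was at 2.08 and 1.25 cRPKM in sap18sr45 and at 4.20 and 4.52 cRPKM in sr45 (log2 change -1.39, adjusted p = 0.0379, and 0.107 to 0.336 with 1 left out). No values of the 2 lines overlapped for these genes, which the rule for naming them required.

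AT1G76530, UGT74E2, DREB2D and ZAT10 made up the rest of the 12 largest falls among annotated genes. AT1G76530, annotated as the PIN-like auxin carrier PILS4, was at 1.78 and 1.38 cRPKM in sap18sr45 and at 6 and 3.49 cRPKM in sr45 (log2 change -1.56, adjusted p = 0.0221), and was called only without the second sr45 library among the 4 (0.0203 to 0.262). UGT74E2, which glucosylates indole-3-butyric acid, was at 1.75 and 0.91 cRPKM in sap18sr45 and at 1.92 and 5.03 cRPKM in sr45 (log2 change -1.45, adjusted p = 0.0403), and was called only without the first sr45 library (0.0102 to 0.736). DREB2D, a transcription factor of the dehydration-responsive DREB family, was at 4.65 and 4.81 cRPKM in sap18sr45 and at 10.6 and 9.65 cRPKM in sr45 (log2 change -1.14, adjusted p = 0.0034), and lost the call without the first sap18sr45 library (0.0231 to 0.097). For UGT74E2 the first sr45 library lay just above the higher sap18sr45 library. With counts thinned to the smallest library, UGT74E2 and DREB2D were not called (adjusted p = 0.203 and 0.12). AT1G76530 and ZAT10 still were (adjusted p = 0.048 and 0.00343).

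**Figure D3:**
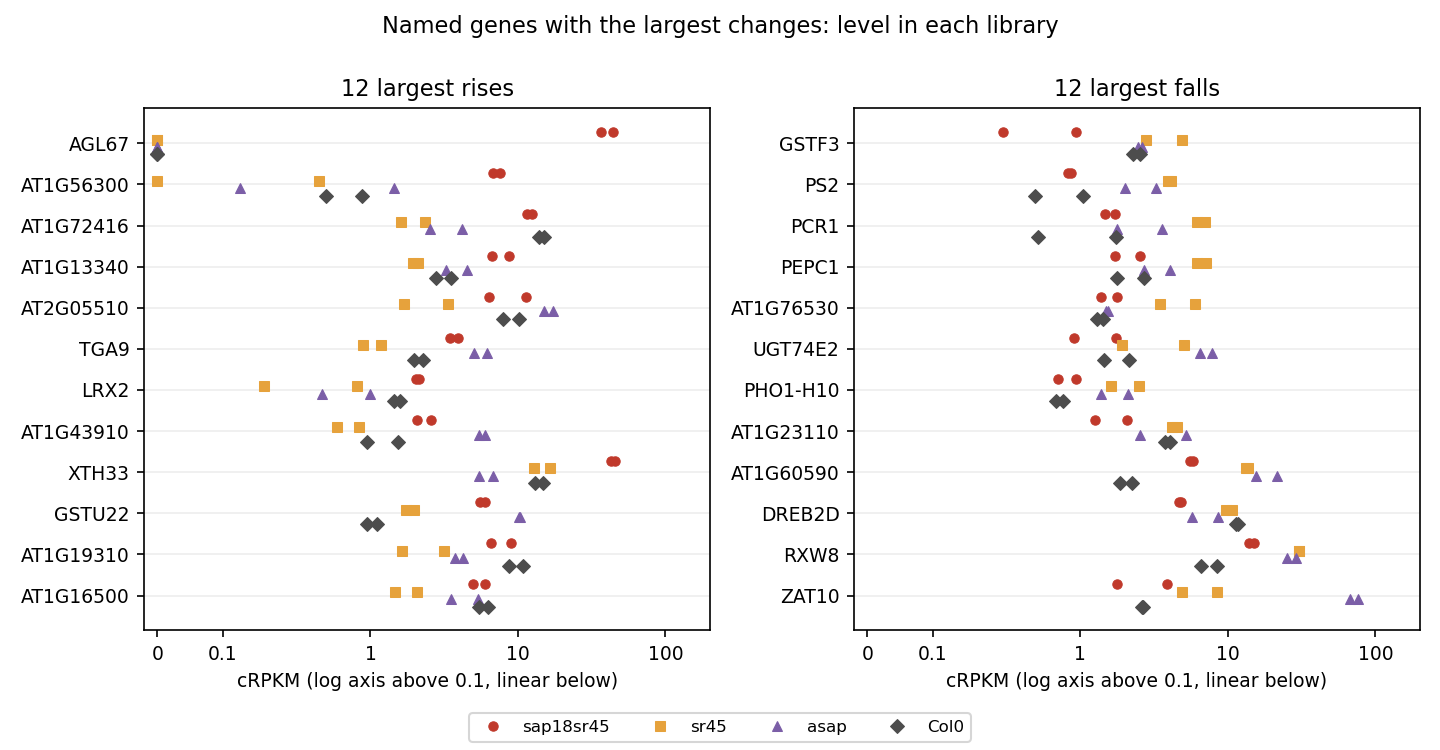
Level in cRPKM (horizontal axis, logarithmic above 0.1 and linear below) of the 12 named genes with the largest rises (left) and the 12 with the largest falls (right), with 1 point per library in red for sap18sr45, orange for sr45, purple for asap and dark grey for Col0. Red and orange points do not overlap in any row, which the rule for naming these genes required. AGL67 has points above 0 only in sap18sr45.

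Several of the smallest p-values belonged to small shifts in well-expressed genes. The cell wall genes sks5 and XTH4 rose, with sks5 at 164 and 154 cRPKM in sap18sr45 and 87.8 and 95.2 cRPKM in sr45 (log2 change 0.75, adjusted p = 2.62e-08). AT1G04430, a methyltransferase, was at 77.9 and 79.8 cRPKM in sap18sr45 and at 53.2 and 49.9 cRPKM in sr45 (log2 change 0.57, adjusted p = 3.95e-06). Both genes lay at the levels of Col0, which were 151 and 161 cRPKM for sks5 and 80.9 and 77.5 cRPKM for AT1G04430.

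Among the falls of this kind were enzymes of sulfur and sugar metabolism. APR2, which reduces activated sulfate on the way to cysteine, was at 85.0 and 87.2 cRPKM in sap18sr45 and at 137 and 150 cRPKM in sr45 (log2 change -0.79, adjusted p = 7.66e-09). BFRUCT4, a vacuolar invertase that splits sucrose, was at 102 and 108 cRPKM in sap18sr45 and at 157 and 170 cRPKM in sr45 (log2 change -0.69, adjusted p = 6.48e-08). Col0 was below all mutants for APR2, at 28.8 and 30.9 cRPKM, and above all mutants for BFRUCT4, at 203 and 201 cRPKM.

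AT1G55960 and AT1G25550 fell as well. AT1G55960, annotated as a lipid transport protein, was at 197 and 203 cRPKM in sap18sr45 and at 331 and 362 cRPKM in sr45 (log2 change -0.84, adjusted p = 3.41e-09). AT1G25550, a myb-like transcription factor, was at 54.0 and 55.8 cRPKM in sap18sr45 and at 92.0 and 97.7 cRPKM in sr45 (log2 change -0.84, adjusted p = 3.57e-08). For AT1G25550 the sap18sr45 libraries were below those of every other line, since asap was at 111 and 111 cRPKM and Col0 at 67.4 and 68.7 cRPKM. The calls of sks5, AT1G04430, APR2, BFRUCT4, AT1G55960 and AT1G25550 were kept in each of the 19 alternatives with a test.

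Gene lists were then read by the count of called members and the median log2 change, beside the 5.61% called and the median of 0.0024 over all genes tested. Of 28 lists with 608 loci, 383 loci were tested, and 9 lists had no called member, of which the seed list had no tested one. All 9 members of the list of ASAP and exon junction proteins and of nonsense-mediated decay were tested, and only SR45 was called, with a median of -0.05. Y14, a core subunit of the exon junction complex, was at 41.6 and 48.5 cRPKM in sap18sr45 and at 39.7 and 42.1 cRPKM in sr45 (log2 change 0.08, adjusted p = 0.835). Its partner MAGO (MEE63 in the table) was at 141 and 142 cRPKM in sap18sr45 and at 161 and 149 cRPKM in sr45 (log2 change -0.17, adjusted p = 0.258), and the decay factor UPF3 had a log2 change of -0.05 (adjusted p = 0.902). None of the 6 SR splicing factors and polypyrimidine-tract binding proteins was called by edgeR or DESeq2 (2 had an unadjusted p under 0.05), with log2 changes between -0.27 for SCL33 and 0.03 for SR34, and 1 fell without the second sr45 library.

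**Figure D4:**
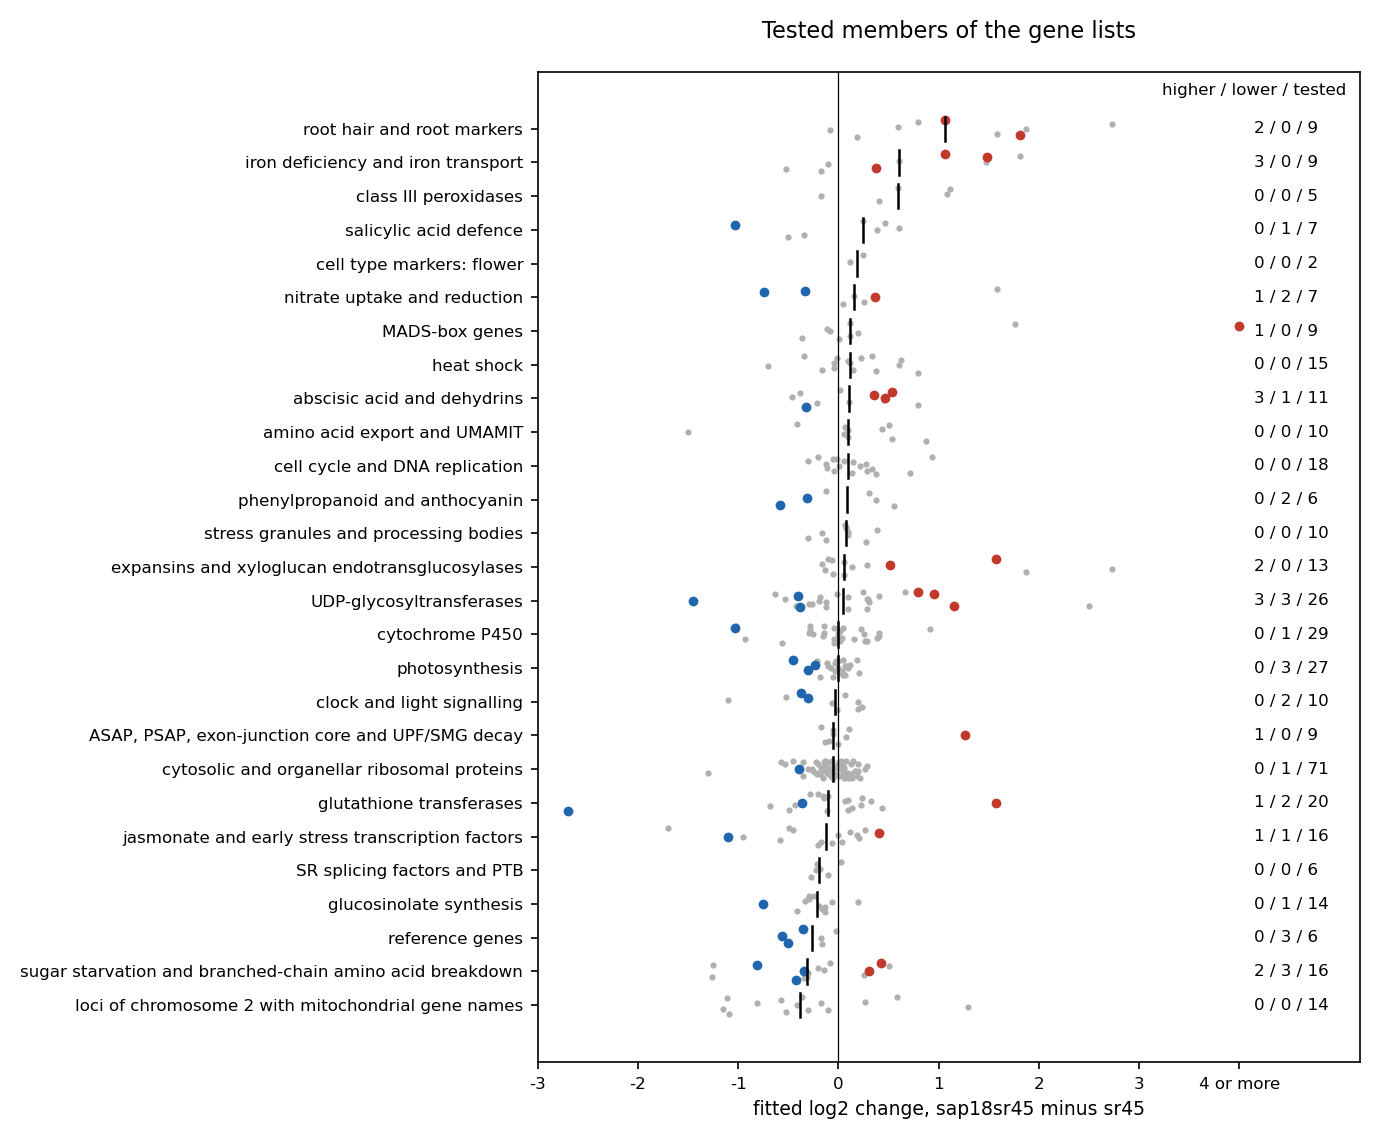
Fitted log2 change of sap18sr45 over sr45 (horizontal axis, with changes of 4 or more drawn at 4) of every tested member of the gene lists, 1 point per gene, in red for genes that rose, in blue for genes that fell and in grey for all others. Black bars are the medians of the lists and the figures at the right give the members that rose, that fell and that were tested, such as 3, 0 and 9 for iron deficiency and iron transport.

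Cell wall genes of the expansin and xyloglucan endotransglucosylase list rose in 2 of 13 tested members and fell in none, with a median of 0.06. Beside XTH33, this was XTH4 at 472 and 485 cRPKM in sap18sr45 and at 330 and 320 cRPKM in sr45 (log2 change 0.51 ± 0.06, adjusted p = 3.95e-06). Both calls were kept in all 19 alternatives with a test. EXPA18 and EXPA7, expansins of root hairs, had the highest fitted changes of the list at 2.73 and 1.87, but at levels of 1.47 cRPKM or less they did not pass the test (adjusted p = 0.171 and 0.314).

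The UDP-glycosyltransferase list held 3 members that rose and 3 that fell among 26 tested, with a median of 0.05. All 3 rises were in subfamily UGT85A. UGT85A4 was at 13.2 and 12.9 cRPKM in sap18sr45 and at 7.46 and 4.52 cRPKM in sr45 (log2 change 1.15 ± 0.19, adjusted p = 0.000168). UGT85A1, which glucosylates cytokinins, was at 17.4 and 17.3 cRPKM in sap18sr45 and at 7.92 and 9.28 cRPKM in sr45 (log2 change 0.95 ± 0.15, adjusted p = 8.28e-05). In Col0 both were higher still, at 32.7 and 30.2 cRPKM for UGT85A4 and 41.6 and 41.9 cRPKM for UGT85A1, so sap18sr45 lay between sr45 and Col0.

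UGT85A2 rose as well, at 24.7 and 21.8 cRPKM in sap18sr45 and 11.5 and 14.2 cRPKM in sr45 (log2 change 0.79 ± 0.14, adjusted p = 0.000354). UGT85A5, next to it in locus order, had a log2 change of 0.29 (adjusted p = 0.463), and UGT85A3 one of 2.5 from 26 and 8 counts in sap18sr45 and 2 and 1 counts in sr45 (adjusted p = 0.12). UGT85A1, UGT85A2, UGT85A3 and UGT85A5 are related neighbours, so reads that fit several of them may be shared. Among the falls, UGT78D1, a flavonol rhamnosyltransferase, was at 27.1 and 27.9 cRPKM in sap18sr45 and at 34.7 and 34.7 cRPKM in sr45 (log2 change -0.38, adjusted p = 0.0263, and 0.0895 to 0.28 without 1 of the 4 libraries). GBSS1, a granule-bound starch synthase that entered the list through its annotated product, was at 122 and 126 cRPKM in sap18sr45 and at 154 and 163 cRPKM in sr45 (log2 change -0.40, adjusted p = 0.000119).

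Iron genes rose in 3 of 9 tested members and fell in none, with a median of 0.60, and each of the 3 lost its call without some of the 4 compared libraries. AT1G74770, a zinc-binding protein of the list, was at 1.34 and 1.26 cRPKM in sap18sr45 and at 0.30 and 0.55 cRPKM in sr45 (log2 change 1.48, adjusted p = 0.0193). FRO2, the root ferric-chelate reductase, was at 4.74 and 4.33 cRPKM in sap18sr45 and at 3.46 and 1.23 cRPKM in sr45 (log2 change 1.06, adjusted p = 0.0391). FRO3, a mitochondrial ferric reductase, was at 20.7 and 20.6 cRPKM in sap18sr45 and at 15.8 and 15.3 cRPKM in sr45 (log2 change 0.37, adjusted p = 0.0408). With counts thinned to the smallest library, AT1G74770 and FRO2 were not called (adjusted p = 0.69 and 0.761), while FRO3 was. Leaving out 1 of the 4 compared libraries gave between 0 and 1 called iron genes, with an adjusted p of 0.0424 to 0.164 for AT1G74770, called only without the second sr45 library, and 0.00162 to 0.64 for FRO2, called only without the first sr45 library. FRO3 lost its call without any 1 of them (0.11 to 0.271).

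Root markers were higher in sum as well, and FRO2 is in both lists. Of 9 tested root and root-hair markers 2 rose, FRO2 and LRX2, and 8 had a log2 change above 0, with a median of 1.06. Summed over the 11 markers, the level was 20.9 and 19.2 cRPKM in sap18sr45 and 10.8 and 11.1 cRPKM in sr45, with 67.6 and 59.4 cRPKM in asap and 12 and 10.9 cRPKM in Col0. LRX2, a leucine-rich repeat extensin of root hairs, was at 2.02 and 2.14 cRPKM in sap18sr45 and at 0.19 and 0.81 cRPKM in sr45 (log2 change 1.81, adjusted p = 0.0202), and was called only without the second sr45 library among the 4 (0.0157 to 0.205). With counts thinned to the smallest library, neither LRX2 nor FRO2 was called (adjusted p = 0.652 and 0.761). The part of root tissue in the changes of the iron genes was not tested.

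Nitrate genes went both ways, with 1 rise and 2 falls among 7 tested and a median of 0.16. NIA1, a nitrate reductase, was at 18.1 and 16.2 cRPKM in sap18sr45 and at 24.4 and 30.9 cRPKM in sr45 (log2 change -0.74 ± 0.12, adjusted p = 0.000168), a call kept in all 19 alternatives with a test. NIA2, the main nitrate reductase of the plant, was at 389 and 370 cRPKM in sap18sr45 and at 432 and 495 cRPKM in sr45 (log2 change -0.33 ± 0.06, adjusted p = 0.00126), and lost the call without the second sap18sr45 library (8.73e-06 to 0.0888). NPF4.6, a transporter of nitrate and abscisic acid, rose to 29.6 and 31.1 cRPKM in sap18sr45, against 22.8 and 22.9 cRPKM in sr45 (log2 change 0.36, adjusted p = 0.0307), and lost the call without any 1 of the 4 (0.115 to 0.267). NIA2 was also not called by limma on log2(cRPKM + 0.5) or log2(cRPKM + 1) (adjusted p = 0.059 and 0.0586). For NIA1 the sap18sr45 libraries were the lowest of all 8, with Col0 at 24.3 and 29.2 cRPKM.

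Genes of sugar starvation and of the breakdown of branched-chain amino acids were called in 5 of 16 members, 2 up and 3 down, with a median of -0.31. STP1, a hexose transporter, was at 281 and 272 cRPKM in sap18sr45 and at 216 and 220 cRPKM in sr45 (log2 change 0.30 ± 0.06, adjusted p = 0.00245), while asap held 94.2 and 87.8 cRPKM and Col0 850 and 851 cRPKM. TPS10, a trehalose-phosphate synthase-like protein, was at 15.7 and 15.2 cRPKM in sap18sr45 and at 11.7 and 10.8 cRPKM in sr45 (log2 change 0.42, adjusted p = 0.0229). STP1 lost its call without the first sap18sr45 library (0.00239 to 0.12) and TPS10 without any 1 of the 4 (0.0532 to 0.236). Without the first sap18sr45 library none of the list rose and 1 fell.

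The 3 falls of this list were BCAT2 and a pair of kelch-repeat F-box genes. BCAT2, a branched-chain aminotransferase, was at 4.35 and 4.78 cRPKM in sap18sr45 and at 7.58 and 7.83 cRPKM in sr45 (log2 change -0.81, adjusted p = 0.00901, lost without the first sap18sr45 or the second sr45 library, 0.0433 to 0.174), far below the 58.6 and 62.8 cRPKM of Col0. AT1G23390 was at 190 and 177 cRPKM in sap18sr45 and at 237 and 240 cRPKM in sr45 (log2 change -0.42, adjusted p = 0.000106), a call kept in all 19 alternatives with a test. KMD1 (AT1G80440), a repressor of cytokinin signalling and phenylpropanoid synthesis, was at 119 and 123 cRPKM in sap18sr45 and at 142 and 154 cRPKM in sr45 (log2 change -0.34, adjusted p = 0.00165, lost at 0.109 without the first sap18sr45 library, the highest over the alternatives). For both F-box genes the order from low to high was sap18sr45, sr45, asap and Col0.

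Dehydrins rose. In the list of abscisic acid genes and dehydrins, 3 of 11 tested members rose and 1 fell, with a median of 0.11, and the 3 rises were the dehydrins COR47, ERD10 and ERD14. COR47 was at 90.2 and 92.1 cRPKM in sap18sr45 and at 55.6 and 65.7 cRPKM in sr45 (log2 change 0.53 ± 0.09, adjusted p = 0.000155), kept in all 19 alternatives with a test. ERD10 was at 29.8 and 33.8 cRPKM in sap18sr45 and at 23.7 and 21.2 cRPKM in sr45 (log2 change 0.46 ± 0.12, adjusted p = 0.0157, lost without the second sap18sr45 or the second sr45 library, 0.0324 to 0.249). ERD14 was at 178 and 179 cRPKM in sap18sr45 and at 136 and 136 cRPKM in sr45 (log2 change 0.35 ± 0.07, adjusted p = 0.00246, lost at 0.0545 without the first sap18sr45 library, the highest over the alternatives).

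HAB1, a phosphatase that holds abscisic acid signalling in check, fell to 34.6 and 34.9 cRPKM in sap18sr45, against 41.3 and 42.6 cRPKM in sr45 (log2 change -0.32, adjusted p = 0.0172). It was called only without the first sr45 library among the 4 (0.0317 to 0.201). Over the 4 libraries left out in turn, 2 to 3 members of the list rose and 0 to 1 fell. The other members, among them the receptor PYL9 with a log2 change of 0.02 (adjusted p = 0.983), were not called.

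Jasmonate and early stress transcription factors had 1 rise and 1 fall among 16 members, with a median of -0.12. JAZ6 (TIFY11B), a repressor of jasmonate signalling, was at 87.3 and 89.0 cRPKM in sap18sr45 and at 64.5 and 65.3 cRPKM in sr45 (log2 change 0.40 ± 0.09, adjusted p = 0.0034), with 31.3 and 31.5 cRPKM in asap and 83.2 and 86.8 cRPKM in Col0. Its call was lost without the first or the second sap18sr45 library (adjusted p = 0.0556 and 0.0695, the highest over the alternatives). ZAT10, a zinc finger repressor of stress responses, was at 3.87 and 1.78 cRPKM in sap18sr45 and at 8.40 and 4.90 cRPKM in sr45 (log2 change -1.10, adjusted p = 0.0394), and was not called without the second sap18sr45 or the first sr45 library (0.0189 to 0.378), nor in a fit of the 4 libraries alone (adjusted p = 0.0697). In asap ZAT10 reached 75.7 and 67.4 cRPKM. WRKY40, a transcription factor of the same early response, was at 2.18 and 1.92 cRPKM in sap18sr45 and at 3.69 and 4.05 cRPKM in sr45 and did not pass the test (log2 change -0.95, adjusted p = 0.0718).

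In salicylic acid defence, 1 of 7 tested members was called, with a median of 0.24. This was PR5, a thaumatin-like pathogenesis-related protein, at 3.49 and 5.15 cRPKM in sap18sr45 and 6.85 and 9.47 cRPKM in sr45 (log2 change -1.03, adjusted p = 0.0497, and 0.0588 to 0.53 without 1 of the 4 libraries). The receptor NPR1 was at 8.82 and 9.83 cRPKM in sap18sr45 and at 5.82 and 7.12 cRPKM in sr45 and did not pass (log2 change 0.46, adjusted p = 0.131). All values of PR5 in sap18sr45 lay below those in sr45.

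Among genes of specialised metabolism, phenylpropanoid enzymes fell in 2 of 6 tested members and rose in none, with a median of 0.09. 4CL1, which activates coumarate, was at 55.6 and 59.9 cRPKM in sap18sr45 and at 83.1 and 83.6 cRPKM in sr45 (log2 change -0.58 ± 0.07, adjusted p = 7.72e-06), and CCR1, which acts after it on the way to lignin, at 101 and 94.9 cRPKM in sap18sr45 and at 119 and 118 cRPKM in sr45 (log2 change -0.31 ± 0.07, adjusted p = 0.00653). The call of 4CL1 was kept in all 19 alternatives with a test and that of CCR1 was lost without the second sap18sr45 library (0.025 to 0.162). CCR1 was also not called by limma on log2(cRPKM + 0.5) or log2(cRPKM + 1) (adjusted p = 0.069 and 0.0686). Nor was it called by voom with quantile normalization (adjusted p = 0.0548). For both 4CL1 and CCR1 Col0 was lower still, at 38.0 and 36.8 cRPKM and at 78.5 and 85.5 cRPKM.

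Glucosinolate genes had a log2 change below 0 in 13 of 14 tested members, with a median of -0.21, but only 1 of them was called. MYB51, a regulator of indole glucosinolates, was at 7.58 and 6.04 cRPKM in sap18sr45 and at 9.28 and 12.8 cRPKM in sr45 (log2 change -0.75, adjusted p = 0.0317), and was called only without the first sr45 library among the 4 (0.0218 to 0.399). CYP79F1, which starts the synthesis of aliphatic glucosinolates, was at 35.0 and 30.9 cRPKM in sap18sr45 and at 40.1 and 38.6 cRPKM in sr45 (log2 change -0.29, adjusted p = 0.112).

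Glutathione transferases had 1 rise (GSTU22) and 2 falls among 20 tested members, with a median of -0.10. GSTU17 was at 136 and 138 cRPKM in sap18sr45 and at 165 and 177 cRPKM in sr45 (log2 change -0.36, adjusted p = 0.00231), and lost the call without the first sap18sr45 library (0.00335 to 0.087). GSTU17 was also not called with counts thinned to the smallest library (adjusted p = 0.166). Of 29 cytochrome P450 genes tested, 1 fell, with a median of 0.00. This was AT1G66540, at 6.54 and 5.04 cRPKM in sap18sr45 and 13.2 and 10.4 cRPKM in sr45 (log2 change -1.03, adjusted p = 0.00354), which was not called without the second sap18sr45 or the first sr45 library (0.00972 to 0.122).

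Few genes of photosynthesis and translation were called. Of 27 photosynthesis genes none rose and 3 fell, with a median of 0.00. LHCB1.2, a light-harvesting protein of photosystem II, was at 6181 and 6297 cRPKM in sap18sr45 and at 7650 and 7308 cRPKM in sr45 (log2 change -0.30 ± 0.06, adjusted p = 0.0013), and LHCB1.3 at 12880 and 12505 cRPKM in sap18sr45 and at 13761 and 15133 cRPKM in sr45 (log2 change -0.23 ± 0.06, adjusted p = 0.0116). These LHCB1 loci are near-identical copies, so how reads were divided between them is uncertain. LHCB7 (AT1G76570) was at 38.5 and 37.9 cRPKM in sap18sr45 and at 54.2 and 47.9 cRPKM in sr45 (log2 change -0.45, adjusted p = 0.0171), and was called only without the second sr45 library among the 4 (0.0249 to 0.168). Without the first sap18sr45 library neither LHCB1.2 (0.000271 to 0.0959) nor LHCB1.3 (0.000173 to 0.244) was called, and LHCB1.3 was not called without the second one either. With 1 of the 4 compared libraries left out, 0 to 5 photosynthesis genes rose and 0 to 4 fell, and the 5 rises and 4 falls were found without the second sr45 library.

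Of 71 ribosomal protein genes 1 fell and none rose, with a median of -0.05. RPL9B was at 253 and 270 cRPKM in sap18sr45 and at 381 and 293 cRPKM in sr45 (log2 change -0.39, adjusted p = 0.022), and was called only without the second sr45 library among the 4 (0.00134 to 0.352). Without that library 1 ribosomal protein gene rose and 5 fell, without any other 1 of the 4 none was called, and without the first or the second asap library 7 or 6 fell. In the list of reference genes, all 3 elongation factor eEF1A loci fell. AT1G07930 was at 145 and 156 cRPKM in sap18sr45 and at 249 and 187 cRPKM in sr45 (log2 change -0.56, adjusted p = 0.000696), AT1G07940 had a log2 change of -0.50 (adjusted p = 0.00125, lost at 0.0845 without the first sap18sr45 library, the highest over the alternatives) and AT1G07920 one of -0.35 (adjusted p = 0.0457, called only without the second sr45 library among the 4, 0.000217 to 0.467, and not called without either asap library). The eEF1A loci are near-identical too, so the split of reads among them is uncertain, and the remaining tested reference genes PP2AA3, GAPC2 and ACT8 had log2 changes of -0.02, -0.17 and -0.16 and were not called. The reference genes that fell numbered 1 without the first sap18sr45 library and 4 without the second sr45 library.

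Clock and light signalling had 2 falls among 10 tested members, with a median of -0.03. LHY, a morning transcription factor of the clock, was at 102 and 96.9 cRPKM in sap18sr45 and at 116 and 132 cRPKM in sr45 (log2 change -0.37 ± 0.07, adjusted p = 0.000719), and lost the call without the second sap18sr45 library (8.6e-05 to 0.0577). RAV2, a repressor of flowering, was at 102 and 96.4 cRPKM in sap18sr45 and at 114 and 123 cRPKM in sr45 (log2 change -0.30 ± 0.07, adjusted p = 0.00599), and was called only without the first sr45 library among the 4 (0.00378 to 0.154). Neither LHY nor RAV2 was called by limma on log2(cRPKM + 0.5) (adjusted p = 0.0642 and 0.0825) or log2(cRPKM + 1) (adjusted p = 0.0631 and 0.0804). RVE3, a relative of LHY, was at 5.06 and 4.30 cRPKM in sap18sr45 and at 10.8 and 9.02 cRPKM in sr45 and did not pass the test (log2 change -1.10, adjusted p = 0.0509). With 1 of the 4 compared libraries left out, 0 to 2 members rose and 0 to 2 fell, with 2 rises and 1 fall without the second sr45 library and no call without the second sap18sr45 library.

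The study also followed SAP18 under heat and in cytoplasmic RNA granules, so both gene groups were read at this step. None of 15 tested heat shock genes was called by edgeR or DESeq2, and 1 had an unadjusted p under 0.05, with a median of 0.12 and log2 changes from -0.70 to 0.79, while 1 fell without either asap library. None of 10 tested genes of stress granules and processing bodies was called by edgeR or DESeq2, and 1 had an unadjusted p under 0.05, with a median of 0.08 and log2 changes from -0.30 for RBP47C to 0.38 for MLP329. The decapping protein DCP1 was at 18.4 and 17.8 cRPKM in sap18sr45 and at 20.3 and 14.1 cRPKM in sr45 (log2 change 0.07, adjusted p = 0.913), and UBP1B, an RNA-binding protein of stress granules, had a log2 change of 0.10 (adjusted p = 0.702). The seedlings were grown at 22 °C, so these are levels without heat.

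Cell cycle genes, class III peroxidases and amino acid exporters were also without a call by edgeR or DESeq2, with 2, 1 and 2 genes at an unadjusted p under 0.05. Of 18 tested cell cycle genes 11 had a log2 change above 0, with a median of 0.10, and of 5 tested peroxidases 4, with a median of 0.59. Of 10 tested exporters, UMAMIT36 came nearest to the threshold, at 5.50 and 6.24 cRPKM in sap18sr45 and 2.63 and 3.44 cRPKM in sr45 (log2 change 0.87, adjusted p = 0.0719). In the MADS-box list AGL67 was the only call among 9 tested of 37 members, of which 20 had 0 counts in the 4 libraries, and 1 further member fell without the second sr45 library.

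Loci of chromosome 2 with mitochondrial gene names set the first sr45 library apart from the second, at a level near that of asap. Their summed level was 93.3 and 97.6 cRPKM in sap18sr45 and 273 and 61.8 cRPKM in sr45, with 255 and 249 cRPKM in asap and 87.8 and 65.4 cRPKM in Col0. Of 105 such loci 14 were tested and none was called by edgeR or DESeq2, with 1 at an unadjusted p under 0.05 and a median of -0.38, while 2 fell without the second sr45 library. Without the first sr45 library 205 genes were called at the step, 76 as higher and 129 as lower, and 180 of the 295 calls were kept. The part of that library's RNA in those changes was not tested.

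The 4 libraries outside the comparison share the filter, the scaling and the estimate of spread with the compared ones. Leaving out the first or the second Col0 library ended the calls of 12 or 14 of the 62 genes named by rule, at adjusted p-values of 0.0512 to 0.129 and of 0.0509 to 0.129. Those lost under both were LRX2, GSTF3, PCR1, UGT74E2, PHO1-H10, AT1G23110, ZAT10, FRO2, NPF4.6, TPS10, PR5 and UGT78D1, and AT1G43910 and AT1G76530 were lost under the second alone. Of the same 62 genes, 23 kept their call in each of the 19 alternatives with a test that gave them a value, and 39 lost it without at least 1 of the 4 compared libraries.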

How the data were processed

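RNA of 8 libraries was sequenced. The authors aligned the reads with vast-tools 2.5 (TAIR10 genome, Ensembl Plants 31 annotation, per the methods and labels) and deposited raw read counts per gene together with cRPKM, an RPKM corrected for mappable length. The table was held in part, 9999 lines that end in chromosome 2. A line that names no locus (at most 0.00281% of counts) and 462 loci without values were left out. No source used here says if counting took the strand into account, which leaves antisense and overlapping genes uncertain. Symbols came from the table for 3489 loci with values and otherwise from RefSeq (TAIR10.1, 98.9% of loci found), which gave names and gene order only. No coordinates are given, since the builds differ.

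The deposited counts were filtered by genotype (filterByExpr), scaled by TMM and fitted with edgeR 4.0.16 (R 4.3.3) in a robust quasi-likelihood model of all 8 libraries, which left 4 residual degrees of freedom and gave a common coefficient of variation of 8.2%. The contrast sap18sr45 minus sr45 was tested 2-sided and adjusted by Benjamini-Hochberg over 5261 genes, and all adjusted p-values come from this test unless another tool is named. Each SE was taken as the absolute log2 change divided by the root of its F value. Alternatives were RLE and upper-quartile scaling, DESeq2 1.42.0, limma 3.58.1 (voom with quantile normalization, and log2(cRPKM + 0.5) or log2(cRPKM + 1)), no filter, at least 10 counts in 4 libraries, the 4 libraries alone, a replicate block, thinning to the smallest library, each library left out in turn, and the study's rule (at least 2-fold in every pair, 50 counts, cRPKM over 5).

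Lists, tests and the rule for named genes were chosen with earlier results of these data known. The rule took SR45, the 12 largest rises and falls, and the 5 rises and 5 falls of smallest p. These rises and falls came from annotated called genes with at least 5 CPM in the higher line and no overlap between the 2 lines. The rule also took the 2 and 2 members of smallest p of each list, and genes with 0 counts in one line and at least 100 in each library of the other. AT1G13650, PHO1-H8 and other list members named beside these were chosen after their values were seen. Counting intervals are exact (95%) and cover counting error only.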

Additional observations from a re-analysis of the deposited data

How the results depend on the processing

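No gene called at this step changed sign under any alternative. Counts of 295 calls (132 rises, 163 falls) moved by over 1.5 times under thinning to the smallest library (164 calls, 76 rises, 88 falls), under limma on log2(cRPKM + 0.5) (162 calls, 68 falls) or log2(cRPKM + 1) (160 calls, 67 falls), under DESeq2 for rises alone (80, with 1326 genes given no adjusted p) and under the study's fold rule (10 calls, 5 rises, 5 falls). Leaving out 1 library gave 112 to 472 calls, 51 to 229 rises and 61 to 243 falls, with the lowest counts without the first sap18sr45 library and the highest without the first asap library. Leaving out either asap library left 294 of the 295 calls in place and added 178 or 172. Replicate numbers did not pair the samples, with correlations of deviations between -0.0357 and 0.0435, and the replicate block gave 267 calls (120 rises, 147 falls), 265 of them shared. The other alternatives, DESeq2 included, called 212 to 360 genes. Depth limited weak genes: 3 counts equal 0.771 to 2.316 CPM in the compared libraries, and 862 genes had an unadjusted p under 0.05, of which 295 passed adjustment.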
